A study of Homo sapiens with 14 samples.

Results

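The transcript uc022brd.2 is 13513 bases long and took more read starts than any of the other 4721 transcripts listed in all 8 tables of parallel analysis of RNA structure (PARS-seq). It was chosen by that total of read starts, so its rank is no result. It is 1 of 25132 transcripts listed in any table, and was cut here into 28 consecutive segments of 500 bases, numbered from the 5′ end, of which the last holds 13 bases. In PARS-seq, refolded poly-A+ RNA is digested either with S1 nuclease, which cuts unpaired bases, or with RNase V1, which cuts paired bases. The 5′ end of each read is taken as a cut. The 8 libraries form 4 groups of 2 replicates, S1 control, S1 KD, V1 control and V1 KD. All are labelled HepG2, a human hepatoma line. Controls received scrambled siRNA, KD cells received siADAR1 against ADAR1, an enzyme that turns adenosine into inosine in paired RNA, and transfection was described as stable. The study calls the 2 replicates biological, but the labels do not say what was repeated, and p-values measure only the spread between these libraries.

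The tables give the identifier alone. As background, the ribosomal RNAs are made as 1 long precursor, in which external and internal spacers flank the 18S, 5.8S and 28S RNAs in that order, and the spacers are removed while the mature RNAs fold into dense stems and loops. Ribosomal RNA lacks a long poly-A tail but makes up most cellular RNA, and some of it commonly stays after poly-A selection. A RefSeq table of another build lists such a precursor, RNA45SN5, with 13357 bases, and its products RNA18SN5 with 1869, RNA5-8SN5 with 157 and RNA28SN5 with 5070 bases. No table used here pairs uc022brd.2 with these genes and its sequence was not compared with theirs, so that it is called by its identifier throughout and its bases are counted along the transcript.

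The libraries were checked first. In the authors' RPKM table, where a PARS-seq value is their mean of the S1 and V1 libraries of a replicate, ADAR was at 40.7 and 46.8 in control and 15.1 and 15.1 in KD. The 7 liver markers examined, among them albumin (ALB) and alpha-fetoprotein (AFP), were at or near 0, with 47 of 70 values listed at 0 and none above 0.0821 RPKM. Their sum was 0.0626 and 0.0502 in the PARS-seq controls and 0.0670 and 0.0575 in KD, so that the labelled line lacked its defining markers in this table and the label itself is in doubt. S1 control replicate 1 listed 4722 transcripts and the other libraries 21052 to 22402. Comparisons therefore used these 4722, on which libraries held from 88565995 to 197781370 read starts.

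With S1, uc022brd.2 took 26.0% of these read starts in control replicate 1 and 39.1% in replicate 2, against 48.9 and 46.1% in KD. With V1 it took 38.2 and 46.4% under control siRNA, against 59.4 and 47.0% in KD. Each KD library was above the control library of the same enzyme and number, but V1 replicate 2 differed by less than 1 percentage point. In read starts the transcript had 27486973 and 44162643 in S1 control, 62611878 and 40820862 in S1 KD, 39206616 and 49162176 in V1 control, and 117383222 and 52001754 in V1 KD. Relative to all other transcripts together, the lowest ratio was 0.352, in S1 control replicate 1, and the highest was 1.46, in V1 KD replicate 1. The order of the group means was S1 control, V1 control, S1 KD and V1 KD, and each group overlapped its neighbours in this order.

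**Figure D1:**
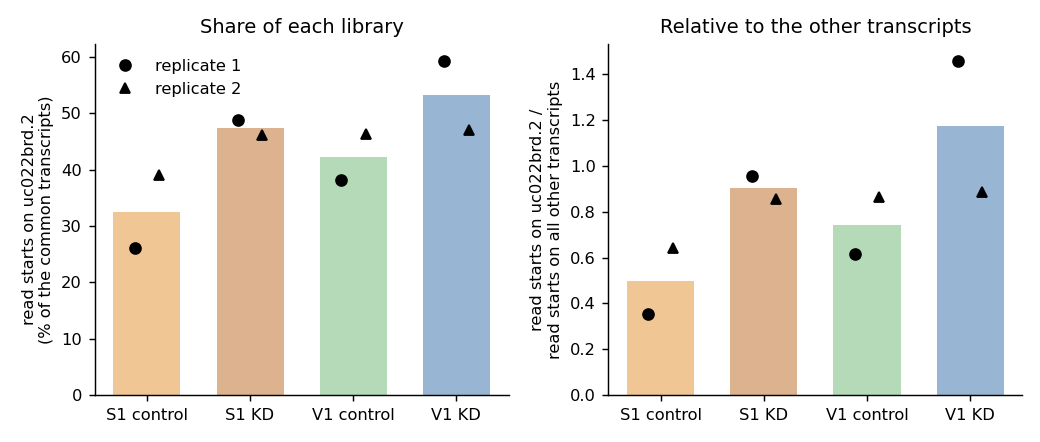
Read starts on uc022brd.2 in each library, as a percentage of those on the 4722 common transcripts (left) and as a ratio to those on all other transcripts (right). Bars are means of 2 replicates and points are libraries, where S1 control replicate 1 is lowest at 26.0% and V1 KD replicate 1 highest at 59.4%.

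No difference in this level passed limma's test with Benjamini-Hochberg adjustment over 4721 transcripts. On the log2 scale of read starts relative to those of the other transcripts, KD was above control by 0.93 ± 0.67 (SE) in S1 (95% interval −0.61 to 2.47, adjusted p = 0.38) and by 0.64 ± 0.67 in V1 (−0.90 to 2.18, 0.57). Of all transcripts, 15% were called in S1 and 13.4% in V1. V1 was above S1 by 0.62 in control (−0.92 to 2.16, adjusted p = 0.54) and by 0.33 in KD (−1.21 to 1.87, 0.75), where 25% and 25.6% of transcripts were called. Leaving out single libraries, the KD difference ranged in S1 from 0.49 (without S1 control replicate 1) to 1.36 (without S1 control replicate 2), and in V1 from 0.28 (without V1 KD replicate 1) to 1.00 (without V1 KD replicate 2). V1 against S1 in control ranged from 0.19 to 1.05, without the same 2 S1 control libraries. Without the 100 bases of most read starts, V1 was above S1 by 1.19 in control and 0.97 in KD, also not called.

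The 3 transcripts whose log2 level followed it most closely had Pearson's r of 0.970, 0.955 and 0.954 over the 8 libraries. The first, uc003ple.2, has 75 bases and ranged from 8.68 to 28.6 read starts per 1e6 read starts on transcripts other than uc022brd.2. The second, uc002knm.3, has 9657 bases and ranged from 389 to 890. All levels share the same divisor within a library.

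Read starts fell on separate stretches of the transcript. In 14 segments the mean share over the 8 libraries was at least 1% of the transcript's read starts, with a lowest mean of 2.35%, and these dense segments held 98.0 to 99.7% of the read starts in every library. The other 14 were sparse, with a highest mean of 0.827%. Segments 8 to 11 (bases 3501 to 5500) held 25.3 to 37.3%, segment 14 (bases 6501 to 7000) held 1.99 to 3.14%, and segments 16 to 26 (bases 7501 to 13000) held 60.1 to 72.1%. Segments 18 and 23 were sparse although they lie inside the last stretch.

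The edges of these stretches were located within segments 8 to 12, 14 and 16 to 26. By the first and last base with a mean share of at least 0.01%, a limit chosen after the profile was seen, the first stretch ran from base 3654 to 5439, the second from 6543 to 6600 and the third from 7922 to 12941. Their spans were 1786, 58 and 5020 bases. Base 424, in the sparse segment 1, also passed this limit, with means of 0.0654% with S1 and 0.0236% with V1. The 100 bases before base 3654 had 298 to 12799 read starts per library, and the 100 bases from it on had 408898 to 1655938. Base 3654 alone took 0.262 to 0.698% of the transcript's read starts. Base 7924, the most covered of segment 16, took 0.807 to 2.82%, and it held between 50.8 and 69.5% of the read starts of its segment in every library. The 100 bases before base 7924, which include bases 7922 and 7923 of the same stretch, had 77474 to 303745 read starts per library, and the 100 from it on had 702005 to 1968187. At bases 3654 and 7924 the shares of the enzymes overlapped, and whether the read starts there come from nuclease cuts was not tested. Segment 28 had no read start in any library.

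**Figure D2:**
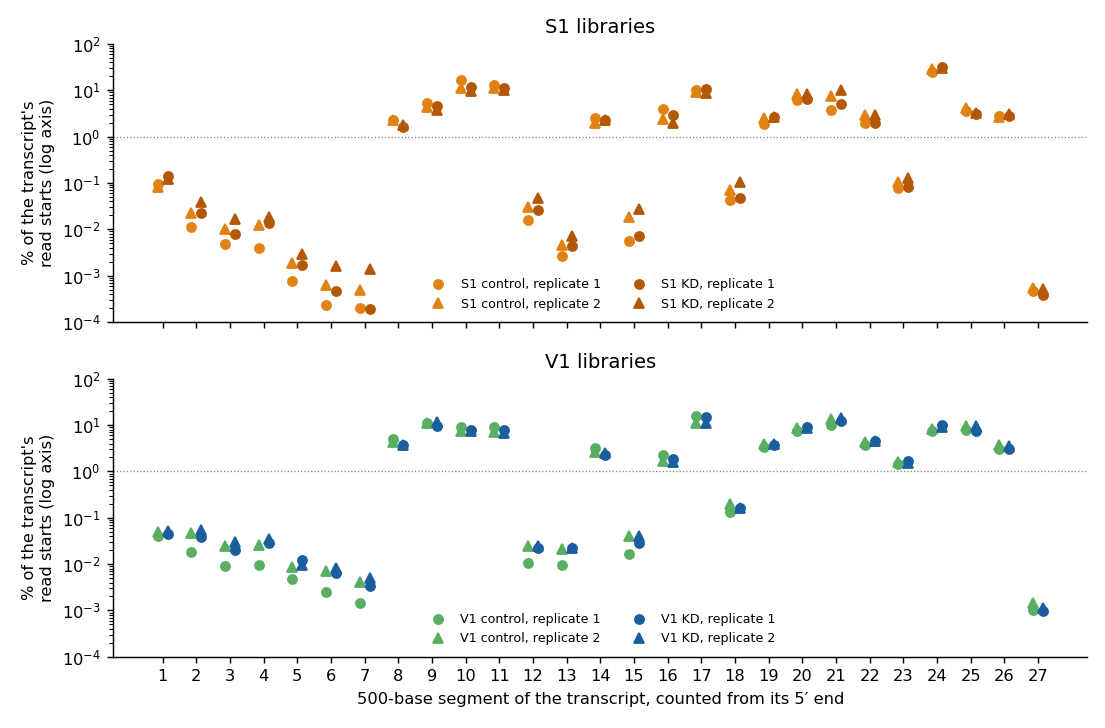
Share of the transcript's read starts in each of 27 segments, in percent on a log axis, for S1 (top) and V1 (bottom), with 1 point per library. The dotted line marks 1%, and the dense segments 8 to 11, 14, 16, 17, 19 to 22 and 24 to 26 lie above it in all 8 libraries, while segment 23 lies above it with V1 alone.

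With S1, the largest share lay in segment 24 (bases 11501 to 12000), with 25.3 and 28.9% in control and 32.3 and 30.6% in KD. The same segment held 7.50 and 8.30% with V1 in control and 9.97 and 8.87% in KD. All S1 libraries were thus above all V1 libraries in this segment. Without the 100 bases of most read starts its mean S1 share was 8.90%. Segments 10, 11, 21 and 9 were then above it, at 13.97, 12.5, 10.6 and 9.22%. With all bases, segment 10 followed segment 24, with a range of 9.58 to 16.9% with S1 and 7.42 to 9.20% with V1. Segment 11 came next, with 10.1 to 12.9% and 6.67 to 9.32%. The next S1 segments were 17, with 8.83 to 10.6%, and 20, with 6.25 to 8.28%.

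With V1, the largest mean share was that of segment 17 (bases 8001 to 8500), with 15.5 and 11.3% in control and 14.8 and 11.2% in KD. Here replicate 1 was above replicate 2 in both conditions. In replicate 2, segment 21 was larger, at 13.5% in control and 14.5% in KD. Without the 100 bases of most read starts, segment 9 led, with a mean V1 share of 13.1% against 8.79% for segment 17. Segment 21 held 9.90 to 14.5% with V1 and 3.69 to 10.2% with S1, and the enzymes overlapped. Segment 9 held 9.63 to 11.8% with V1 against 3.78 to 5.21% with S1. Segment 25 held 7.35 to 9.76% with V1 against 3.04 to 4.11% with S1. Both were higher in every V1 library than in any S1 library.

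The ratio of V1 to S1 was then compared segment by segment. The log2 share was fitted with limma for all 25336 segments of the common transcripts, and 27 segments of uc022brd.2 could be fitted. In control, 10 were higher with V1 and 4 lower, which is 51.9% of the 27 against 23.1% of all segments (14.3% higher and 8.82% lower). In KD, 10 were higher and 3 lower, which is 48.1% against 23.9% (15.4% higher and 8.51% lower). The median difference of its segments was 1.02 in control and 0.90 in KD, and that of all segments was 0.09 and 0.12. Its medians were 0.31 in each condition without the 100 bases of most read starts, and 1.64 and 1.23 scaled to the other transcripts. Leaving out single libraries, they ranged from 0.54 to 1.18 in control and from 0.54 to 1.19 in KD. In both conditions segments 5, 6, 8, 9, 13, 19, 23, 25 and 27 were called higher and segments 1, 11 and 24 lower. Shares of 1 transcript sum to 100%, so that the high S1 share of segment 24 lowers the S1 share of the others. With levels scaled to the other transcripts in place of the transcript itself, which moved the median of all segments in control from 0.09 to 0.24, 10 were higher and 0 lower in control and 8 and 0 in KD (21.0 and 22.3% of all segments).

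Segment 23 (bases 11001 to 11500) had the largest ratio. It had 21828 and 45980 read starts in S1 control, 52360 and 53348 in S1 KD, 570015 and 779646 in V1 control, and 1939066 and 793926 in V1 KD. As shares these were 0.0794 to 0.131% with S1 and 1.45 to 1.65% with V1. The log2 difference was 4.06 ± 0.21 in control (adjusted p = 0.0015) and 3.93 ± 0.21 in KD (0.0011). It was called under all 14 alternatives tried for 500-base segments. Segment 24, directly downstream, had the smallest ratio, at −1.78 ± 0.08 in control and −1.74 ± 0.08 in KD (adjusted p = 0.0011 in each). The 4 same-numbered pairs of libraries lay between −1.80 and −1.70. Scaled to the other transcripts, segment 24 was at −1.16 in control and −1.41 in KD and was not called (adjusted p = 0.12 and 0.065). Neighbouring segments of 500 bases thus had the most V1-rich and the most S1-rich shares of the transcript.

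Among the sparse segments at the 5′ end, the balance differed between segment 1 and those after it. Segment 1 was richer in S1, with 26539 and 37015 read starts in S1 control and 15965 and 24661 in V1 control, although V1 libraries were deeper on the transcript in each pair. Its log2 difference was −0.99 ± 0.14 in control (adjusted p = 0.0065) and −1.46 ± 0.14 in KD (0.0025). Scaled to the other transcripts, it was −0.37 in control and −1.13 in KD and both calls were lost (adjusted p = 0.48 and 0.051). Base 424 held 47.2 to 59.9% of its read starts in every library. Segments 2 to 7 had ratios above 0 in all 4 pairs. Segment 6 had 64 and 273 read starts in S1 control against 998 and 3451 in V1 control, a log2 difference of 3.47 ± 0.77 (adjusted p = 0.023), and 3.07 ± 0.77 in KD (0.032). These calls of segment 6 were lost under 2 and 4 of 14 alternatives, with differences of 2.15 to 3.26. Segment 7 had 55 and 222 against 554 and 2058, and its difference of 2.93 ± 0.99 was not called (95% interval 0.57 to 5.29, adjusted p = 0.077). It was called under 4 of 14 alternatives, with the replicate block (adjusted p = 0.0013), scaled to the other transcripts (0.043) and without either S1 KD library (0.038 each). Its pairs ranged from 1.85 to 4.13, the widest range of any segment fitted.

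Within the first dense stretch, segments 8 and 9 had larger shares with V1 and segments 10 and 11 with S1. The differences in control were 1.02 ± 0.07 for segment 8, 1.19 ± 0.13 for segment 9, −0.71 ± 0.20 for segment 10 and −0.57 ± 0.14 for segment 11, all called in control. Segment 10 was not called in KD, at −0.48 ± 0.20 (95% interval −0.97 to 0.00079, adjusted p = 0.13, but 0.0047 with the replicate block), and its control call (0.048) was lost under 10 of 14 alternatives. Scaled to the other transcripts, 0 of the 27 segments were called lower with V1 in either condition, so that segments 10 and 11 lost their calls. In the third stretch, segments 19 and 25 were called higher with V1 by share in both conditions, while segments 17, 20, 21 and 26 were called in neither. With the replicate block, segments 17 and 21 were called in both conditions and segment 26 in control, and segment 20 in neither (adjusted p = 0.21 and 0.063). Over the 27 segments, 20 had a ratio above 0 in all 4 pairs, 6 below 0 in all 4 and 1, segment 14, both signs. Without the 100 bases of most read starts, 14 were above 0 and 7, with segment 14, below 0 in all 4. With all bases, 11 of the 13 sparse segments fitted and 9 of the 14 dense segments were among the 20. Such counts were not made for the segments of all transcripts.

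**Figure D3:**
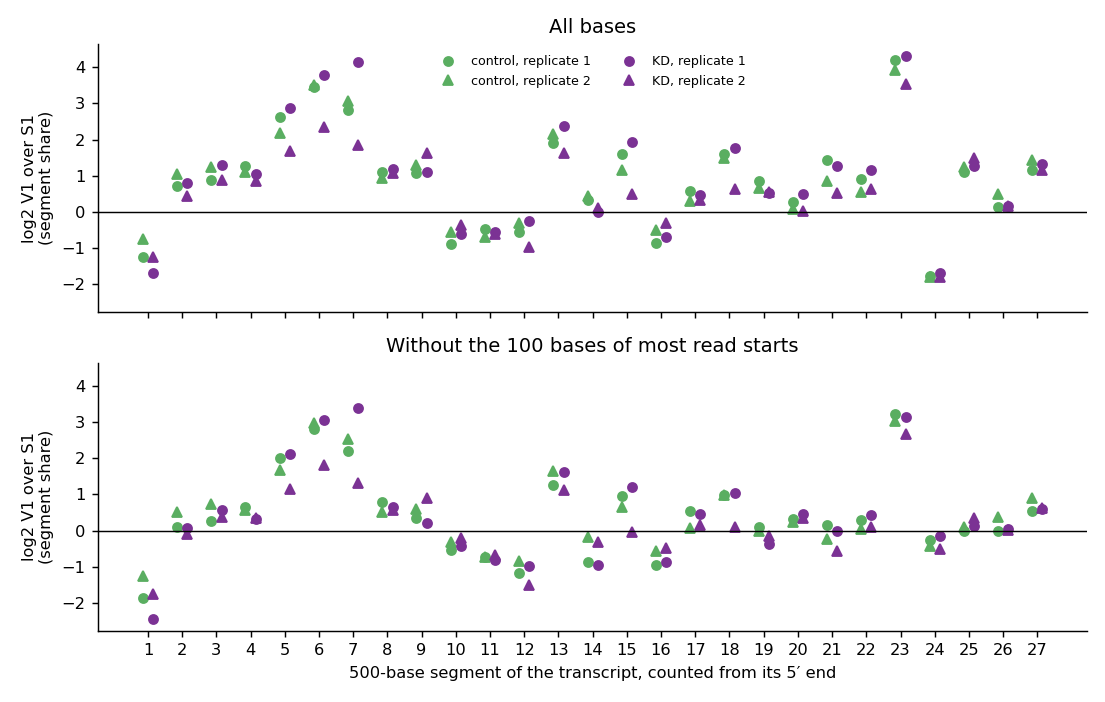
Log2 ratio of V1 to S1 segment shares for the 4 same-numbered pairs of libraries, with all bases (top) and without the 100 bases of most read starts (bottom). Segment 23 lies between 3.55 and 4.30 with all bases and between 2.68 and 3.23 without the 100, while segment 24 moves from between −1.80 and −1.70 to between −0.50 and −0.16.

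A few bases carried much of this. The 100 bases of highest mean share held 54.8% of the transcript's S1 read starts and 31.5% of its V1 read starts. The S1 control libraries had 55.6 and 52.0% of their read starts there and the S1 KD libraries 59.0 and 52.8%. The 4 V1 libraries were closer to each other, from 31.2 to 31.7%. The difference of 23.3 percentage points was at the smallest p that 4 libraries against 4 allow (exact permutation test, two-sided, p = 0.0286). The KD and control libraries differed by 1.15 points (exact permutation test within enzymes, two-sided, p = 0.44, smallest possible 0.0556). The ranking used all 8 libraries, and when each library was ranked by itself the means were 63.0 and 40.1%. The last base inside, at 10197, had a mean share of 0.149%, and the first outside, at 4551, had 0.148%. The most covered bases that add up to 50% of the read starts numbered 32 to 55 with S1 and 172 to 188 with V1. Among 269 other transcripts longer than 6000 bases, the 100 bases of most read starts held a median of 50.5% with S1 and 32.0% with V1. 92 of these transcripts were above uc022brd.2 with S1 and 143 with V1.

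The 100 bases lay in 14 segments, with 18 in segment 24, 17 in segment 21 and 15 each in segments 11 and 17. At 49 of them every S1 library was above every V1 library, at 40 the reverse held, and at 11 the enzymes overlapped. Over all 7824 bases of the transcript with at least 80 read starts, every V1 library was above every S1 library at 60.8% and the reverse held at 19.9%. Over such bases of all common transcripts these were 48% and 35.1%. The bases of uc022brd.2 were deeper, with a median of 5231 read starts against 174.

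The 5 bases of most S1 read starts were 11733, 11723, 8270, 11725 and 11724, so that 4 of them lie within 11 bases of segment 24. Base 11733 took 4.54 and 8.56% of the transcript's read starts in S1 control and 6.47 and 9.52% in S1 KD, and from 0.00878 to 0.0104% with V1. It was the most covered base of 3 S1 libraries, and replicate 2 was above replicate 1 in both conditions. Base 11723 took 5.20 and 4.04% in S1 control and 5.77 and 3.34% in S1 KD, with replicate 1 above replicate 2 in both conditions. It was the most covered base of S1 control replicate 1. V1 read starts flanked this run, with 0.837 to 1.33% at base 11718 and 0.645 to 1.17% at base 11737, where S1 had at most 0.00574 and 0.405%.

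The 5 bases of most V1 read starts were 12405, 10296, 8304, 8268 and 6595. Base 12405 took 1.91 to 3.38% with V1 and 0.0139 to 0.0199% with S1. It alone held 25.9 to 34.6% of the V1 read starts of segment 25. Base 10296 took 1.20 to 2.15% with V1 and 0.0560 to 0.163% with S1. In segment 17 both enzymes had maxima close together, with S1 at base 8270, at 3.36 to 5.12% against 0.216 to 0.277% with V1. V1 peaked at base 8268, at 1.35 to 1.68% against 0.126 to 0.185% with S1, and again at base 8304, at 1.31 to 1.81%. Base 6595 in segment 14 was covered by both enzymes, at 0.913 to 1.27% with S1 and 1.05 to 1.45% with V1, and the libraries overlapped.

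**Figure D4:**
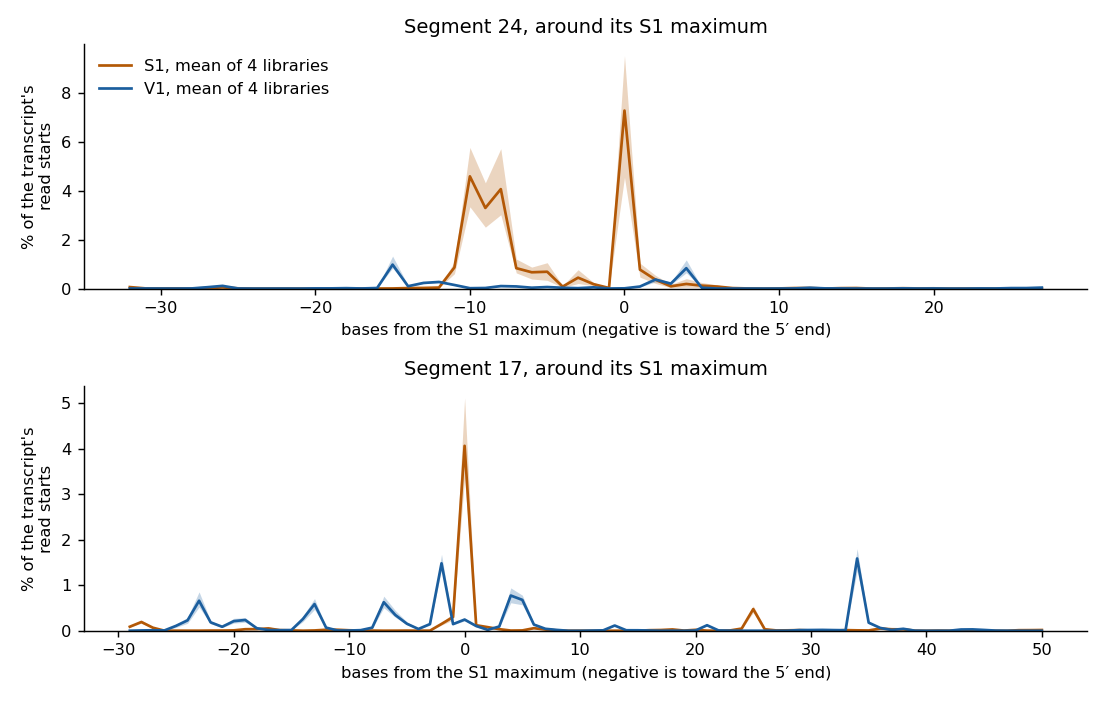
Share of the transcript's read starts at single bases around the S1 maximum of segment 24 (base 11733, top) and of segment 17 (base 8270, bottom). Lines are means of 4 libraries of an enzyme and bands run from the lowest to the highest library, and S1 and V1 maxima fall on different bases.

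Without the 100 bases, 5 segments were higher with V1 and 3 lower in each condition, which is 29.6% of the 27 against 23.0% of all segments in control and 23.9% in KD. Segment 24 was then no longer called, at −0.35 in control (adjusted p = 0.070) and −0.33 in KD (0.080). Segment 23 was still higher with V1, by 3.13 ± 0.15 in control and 2.91 ± 0.15 in KD (adjusted p = 0.0011 and 0.0012). Segments 1, 11 and 16 were lower, with −1.56, −0.73 and −0.76 in control, and segment 16, which holds 2 of the 100 bases with base 7924 among them, was not called with them unless the replicate number was a block (adjusted p = 0.0015 in control and 0.0059 in KD). Segments 5, 8 and 13 were higher in both conditions. Segments 9, 19, 25 and 27 lost their calls in both conditions. Segment 27 holds none of the 100 bases, so that its ratio moved only with the transcript's total.

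The profile over all 13513 bases was described with correlations across bases, which are not independent. Pearson's r was 0.899 to 0.901 between S1 replicates and 0.937 to 0.953 between V1 replicates. Control against KD with equal numbers gave 0.974 to 0.988 for S1 and 0.970 to 0.993 for V1, which is above the range of the replicates. Spearman's rho did not separate them, with 0.941 to 0.954 for equal numbers against 0.939 to 0.945 for replicates in S1 and 0.972 to 0.980 against 0.971 to 0.980 in V1. S1 control replicate 2 and S1 KD replicate 1, of unequal numbers, had r of 0.937, also above the S1 replicates. Between S1 and V1 libraries Pearson's r was 0.0938 to 0.153, while Spearman's rho was 0.810 to 0.830. The 5 leading bases of S1 and the 5 of V1 had none in common.

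KD and control were compared for the same 27 segments. By limma with Benjamini-Hochberg adjustment, 0 segments were called in S1 and 0 in V1, as for all 25336 segments, where 0% were called in either. At an unadjusted p under 0.05 there were 3 of 27 in S1 and 3 in V1, against 1227 and 392 of all segments. Without the 100 bases of most read starts these were 4 and 1 of 27. These differences are in the share of the transcript. Scaled to the other transcripts, the KD difference was above 0 for all 27 segments with both enzymes, with medians of 1.15 in S1 and 0.74 in V1. None of the 27 was called (2.72 and 1.89% of all segments were), and 12 in S1 and 0 in V1 were at an unadjusted p under 0.05, against 5045 and 4394 of all. The difference of the KD effect between the enzymes was also called for 0 segments, with 0 of the 27 at an unadjusted p under 0.05 and 202 of all.

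The largest KD differences in either enzyme lay in the sparse segments 4 to 7. Segment 4 had 0.00396 and 0.0121% in S1 control and 0.0137 and 0.0188% in S1 KD, a log2 difference of 1.21 ± 0.62 (95% interval −0.27 to 2.68, adjusted p = 0.97). With V1 it was 0.98 ± 0.62 (−0.49 to 2.46). Segment 6 differed by 1.19 ± 0.77 in S1 (−0.65 to 3.02) and 0.78 ± 0.77 in V1 (−1.05 to 2.62), segment 5 by 0.91 ± 0.51 in S1 (−0.31 to 2.13) and segment 7 by 0.79 ± 0.99 in V1 (−1.58 to 3.15). These intervals hold differences of more than 2-fold in both directions for segments 6 and 7 in V1. Segments 1 to 7 together held 0.118 and 0.132% in S1 control against 0.190 and 0.204% in S1 KD, without overlap, and 0.0861 and 0.166% in V1 control against 0.153 and 0.194% in V1 KD, with overlap. Most of the S1 control sum was segment 1, with 0.0966 and 0.0838%, whose own KD difference in S1 was 0.57 ± 0.14 (95% interval 0.22 to 0.91, limma, unadjusted p = 0.0062, adjusted p = 0.97). Of the 13 sparse segments, KD was above the control of the same number in both replicates for 11 with S1 and 9 with V1. Of the 14 dense segments it was so for 5 and 3. These counts use shares of the transcript, which are not independent between segments. They were made neither for the segments of all transcripts nor with levels scaled to the other transcripts. Whether this contrast is unusual was therefore not tested.

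Segments 8 and 24 were those at an unadjusted p under 0.05 with both enzymes, and segment 8 is named here after its values were seen. Segment 8 held 2.33 and 2.28% in S1 control against 1.63 and 1.80% in S1 KD, and 4.97 and 4.38% in V1 control against 3.70 and 3.78% in V1 KD. Its log2 difference was −0.43 ± 0.07 in S1 (95% interval −0.59 to −0.26) and −0.32 ± 0.07 in V1 (−0.48 to −0.15), and it was not called in either (limma, adjusted p = 0.83 and 1.00). With the replicate number as a block, the same S1 difference was called (adjusted p = 0.048), where 0.635% of all segments were. Segment 24 was at 0.22 ± 0.08 in S1 (0.02 to 0.42) and 0.25 ± 0.08 in V1 (0.05 to 0.45), and was also not called (adjusted p = 0.97 and 1.00). For both segments, control and KD libraries did not overlap with either enzyme. As both were picked by p, this adds nothing further, and such segments were not counted over all transcripts. Without the 100 bases, segment 24 overlapped in S1, where the control shares were 7.53 and 9.21% against KD shares of 8.64 and 10.2%, while segment 8 did not with either enzyme. Scaled to the other transcripts, segment 8 turned to 0.50 in S1 and 0.32 in V1 (limma, adjusted p = 0.49 and 0.71), so that it was lower in KD only as a share of the transcript.

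**Figure D5:**
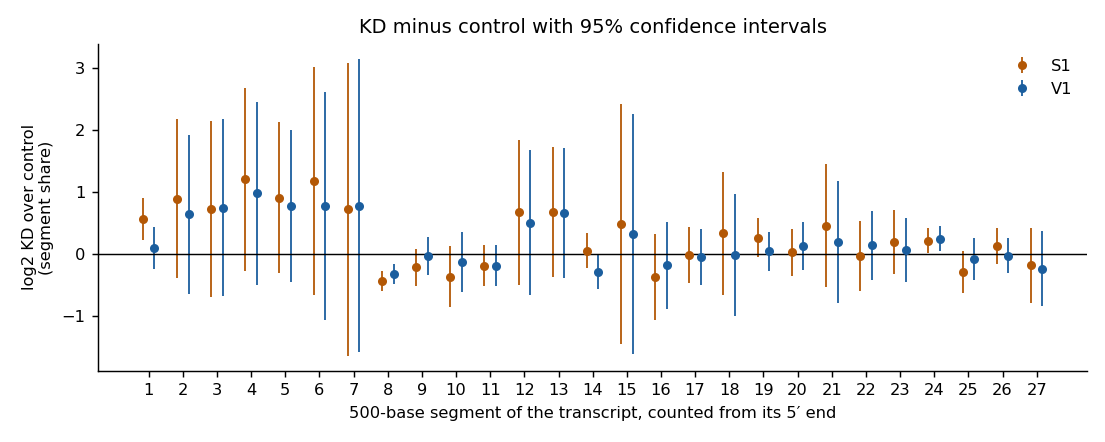
Log2 difference of KD minus control in segment share for S1 and V1, with limma's 95% confidence intervals. No segment was called in this fit, which has no replicate block. The intervals are widest in segments 6, 7 and 15 and narrowest in segments 8 and 24, which lie below and above 0 with both enzymes on this scale of shares.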

How the data were processed

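The data used were the per-base tables of 8 PARS-seq libraries and an RPKM table. Per its methods, the authors mapped reads to the UCSC knownCanonical set (hg19) with bowtie2 in local mode, retained unique alignments and counted read starts per base, then scaled samples to equal sums. The deposited tables, 1 per library, hold whole numbers with unequal sums, and were taken as read starts before that scaling. Dropping reads with several alignments can remove read starts in sequence shared with other transcripts. The RPKM values were deposited by the authors for RefSeq genes, and were used for ADAR and 7 markers. Because a cell of the read-start tables joins all bases of a transcript, values were summed per segment and tested on a log scale, with limma 3.58.1 (R 4.3.3) and a mean trend, in place of a count test.

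Segments of at least 100 bases, in transcripts with 2 or more of them and with at least 80 read starts over the 8 libraries, entered 1 fit over all 4 groups, as log2 of the share of the transcript with 0.5 added. A segment or level was called at a Benjamini-Hochberg adjusted p under 0.05. Exact permutation tests served the share of the 100 bases. The transcript, its segments and all lists were chosen with earlier results of these data known. Segments given in full were the 5 of largest share per enzyme, the 3 largest and 3 smallest ratios and the 3 largest KD differences per enzyme, with the 5 leading bases per enzyme. Reads carried no molecular identifiers, so depth sets only the counting error. Segments 6, 7 and 27 had under 1000 read starts in each S1 library. Alternatives were the segment length, scaling, pseudocount, minimum, weights, replicate block and leaving out libraries. Calculations used Python 3.11.15, numpy 2.4.6, pandas 2.3.3 and scipy 1.17.1.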

Additional observations from a re-analysis of the deposited data

How the results depend on the processing

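The share of fitted segments of uc022brd.2 called for V1 against S1, 51.9% in control and 48.1% in KD, was 29.6% in each without the 100 bases of most read starts. Scaling to the other transcripts gave 29.6% in KD. Leaving out single libraries gave 25.9 to 51.9% in control, where S1 control replicate 1 (29.6%) and V1 control replicate 2 (25.9%) moved it most, and 22.2 to 51.9% in KD, at 22.2% without S1 KD replicate 1, V1 KD replicate 1 or V1 KD replicate 2. Over all segments the share fell alongside, to 12.99 and 12.7% in those 2 control fits and to 7.40, 5.79 and 7.02% in those 3 KD fits. Pseudocount 5, no minimum of read starts, voom weights and segments of 250 or 1000 bases stayed within 1.5 times in both. The level difference of V1 against S1 in KD ranged from −0.027 to 0.69 when single libraries were left out, and was below 0 without V1 KD replicate 1. The difference of the KD effects on the level ranged from −0.72 to 0.15, above 0 without S1 control replicate 1 and, at 0.07, without V1 KD replicate 2. The KD difference in the share of the 100 bases ranged from −0.402 to 2.71 points, below 0 without S1 KD replicate 1. No level difference was called under any alternative run. The cause of these shifts was not tested.

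Same-numbered libraries deviated together from their group means over the segments of all transcripts (r of 0.680 to 0.830), but there are only 2 numbers and the labels do not say what a number shares. With the replicate block, 92.6% of the 27 segments were called in control and 88.9% in KD (54.5 and 55.1% of all segments). For KD against control it gave 3.70% in S1, segment 8, lower as a share of the transcript (0.635% of all), and 0 in V1. Scaled to the other transcripts, with no block, all 27 segments were above 0 in KD with both enzymes and none was called.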
